A study of Mus musculus with 8 samples.

Results

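Mouse genes of ubiquitin conjugation and deubiquitination were examined for N6-methyladenosine (m6A) in TBLC depleted of Virma and in EPSC carrying an RNA demethylase. The genes were taken by name: every gene that has a called m6A site in both control lists and whose symbol begins with Ube2 (E2 conjugating enzymes), Fbxo, Fbxl or Fbxw (F-box proteins), or Usp or Otud (deubiquitinases). The rule found 108 of the 8806 genes listed in both control lists, of 10609 genes named in any TBLC list. They comprise 27 E2 genes, 39 F-box genes and 42 genes named as deubiquitinases. A further 10 genes of these names were in only one control list and 2, Fbxl8 and Usp40, were in siVirma lists only, and none of the 12 is counted below. The name is wider than the function: Usp6nl encodes a regulator of Rab GTPases, Uspl1 a SUMO protease, and Usp39, Usp53 and Usp54 are regarded as inactive on ubiquitin. Ube2n-ps1 and Ube2d-ps are pseudogenes, Ube2nl is a close copy of Ube2n, and the Usp17l genes are near-identical copies, so reads of these may be split or shared among copies and their values are uncertain. The single listed site of Fbxl22 lies on the same strand between listed sites of Usp3, so its gene name is uncertain too.

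The m6A was measured at single bases by GLORI, a chemical treatment that turns unmethylated adenosine into a base read as G and leaves m6A, which is read as A. The level of a site is therefore its fraction of A among A+G reads. TBLC kept in MYCP medium received an siRNA against Virma (siVirma, 2 libraries) or a control siRNA (siNC, 2 libraries). EPSC with a fusion of dCas13b to the demethylase FTO had a guide against Gata6 (sgGata6, 2 libraries) or a control guide (sgCtrl, 2 libraries), and their deposited values are pooled to 1 value per group. The comparisons ask how loss of Virma, and recruitment of the demethylase to Gata6 RNA, changed m6A in these genes. The labels do not say whether the 2 libraries of a group came from separate cultures, so p-values measure only the spread between them, which may be technical.

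Ubiquitin is activated by an E1, carried by an E2 and attached to a substrate with the help of an E3 ligase. In SCF ligases, a cullin scaffold holds the E2 at one end and, through Skp1, an F-box protein that selects the substrate at the other. Deubiquitinases remove or trim ubiquitin, and SUMO and NEDD8 are attached by E2 enzymes of the same fold. Virma is the large scaffold of the m6A writer complex, in which Mettl3 and Mettl14 catalyse the methylation, and m6A in messenger RNA is known for its links to RNA decay in stem cells.

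Called sites had 3423268 and 2655963 A+G reads in total in the siVirma lists, and 4764955 and 4367999 in the siNC lists. Virma itself, on chromosome 4, had a deposited gene coverage of 24 and 22.8 in siVirma, against 40.3 and 38.2 in siNC, a fold of 0.531 after centring on the median gene (limma, adjusted p = 8.3e-06), so the targeted RNA was lower in the libraries labelled siVirma. The median share of A left unconverted per gene among all genes was 1.20% in both siVirma libraries, and 1.88% and 1.89% in siNC. Of 15 pluripotency genes, 14 were listed in both siNC lists, and of 27 genes of the 2-cell stage program 15 were. The first count includes Fbxo15 and the second Usp17la, Usp17lb, Usp17lc and Usp17le. The rule that chose the genes studied here required these to be listed, so they say nothing about the cells. Of 20 fibroblast genes, which mark feeder cells, 14 were listed, Dcn, Lum, Pdgfrb and Col3a1 not among them. Summed coverage of the fibroblast genes tested, not centred, was 743 and 609 in siVirma, against 430 and 403 in siNC. The median gene also stood 0.17 (log2) higher in siVirma before centring, so these sums include that shift. After centring, 9 of 11 were called higher in siVirma by limma, against 12.0% of all genes. In bulk RNA, fewer cells of a type and less RNA per cell cannot be told apart, and the part of feeder RNA in the results below was not tested. In EPSC the 3 Gata6 sites had levels of 0.364, 0.6 and 0.333 in sgGata6, against 0.696, 0.889 and 0.500 in sgCtrl, on 10 to 12 reads in sgGata6.

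The genes differed in how many sites they carried and in how strongly these were methylated. Both siNC lists held 737 sites of the 108 genes: 124 in E2, 292 in F-box and 321 in deubiquitinase genes. The median number of sites in both siNC lists was 4 per E2 gene, 6 per F-box gene and 5 per deubiquitinase gene. Over the 10609 genes named in any TBLC list it was 2. That set includes genes absent from 1 or both siNC lists, while the genes studied here had to be in both, so the comparison is not like for like. Of the 108 genes, 27 had 10 or more sites in both siNC lists and 17 had 1. Usp34, a deubiquitinase of axin in the Wnt pathway, had 29 sites, the most of all, followed by the nuclear deubiquitinase Usp48 with 27 and by Usp47, a partner of the F-box protein β-TrCP, with 21. Among F-box genes, Fbxo42 had 20, Fbxo30 19 and Fbxl19, whose protein binds CpG islands, 18. Ube2q1, with 19, Ube2o, a large enzyme that acts as E2 and E3 in one, with 11, and Ube2d3, a broadly acting partner of RING ligases, with 9 led the E2 genes. Ube2a, Ube2m, Usp42 and Usp53 had a site in each siNC list but none in both.

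The median siNC level of a site was 0.327 in E2 genes, 0.456 in F-box genes and 0.374 in deubiquitinase genes, against 0.410 over all sites. Sites under a level of 0.3 made up 44.4% of E2 sites, 29.8% of F-box sites and 35.8% of deubiquitinase sites, against 34.5% of all sites. At the other end, 11.3%, 19.2% and 14.6% of the sites of these groups had a level of 0.8 or more, against 16.5% of all sites. Within the F-box group, sites of the WD40 type (Fbxw) had the highest median, 0.526, with 0.481 in leucine-rich repeat genes (Fbxl) and 0.406 in the remaining type (Fbxo). E2 enzymes of the Ube2d and Ube2e families had a median of 0.267 over 25 sites. The 4 Usp17l genes, which are active in the 2-cell embryo, had a median of 0.497 over 8 sites. Sites stood within 10 nt of another listed site in 14.5% of cases in these genes, against 10.1% of all sites. These group differences are descriptions and were not tested.

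Virma depletion left about as many sites of these genes as of other genes. The lists held 557 and 492 of their sites in siVirma, against 932 and 873 in siNC, a mean change of -41.9%, where all sites together changed by -40.9%. The change was -49.5% for E2 genes, -37.8% for F-box genes and -42.7% for deubiquitinase genes. Of the 737 sites in both siNC lists, 48.0% were called in both siVirma lists, 44.4% in E2, 51.0% in F-box and 46.7% in deubiquitinase genes, against 47.1% of all sites. Neither siVirma list held 37.1% of E2 sites, 28.8% of F-box sites and 28.7% of deubiquitinase sites, against 33.1% of all sites. A site can leave a list through a lower level or through fewer reads, since every listed site has 15 or more A+G reads, 5 or more A reads and a level of 0.1 or more. Of the 222 sites of these genes found in neither siVirma list, 56.3% had a siNC level under 0.223, the level at which the median gene's loss would take a site under the level minimum, and 80.2% would have missed the level or the read minimum, against 52.8% and 80.9% of all such sites.

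Retention followed the siNC level in all 3 groups. At a siNC level of 0.8 or more, all 14 E2 sites and all 56 F-box sites were called in both siVirma lists, and 44 of 47 deubiquitinase sites, or 93.6%, against 91.9% of all sites. The 3 exceptions lie in Usp17le, Usp4 and Usp6nl, where the sites had 15 to 29 reads in the lists that held them. Between 0.6 and 0.8 the shares were 92.9%, 84.6% and 89.5% for E2, F-box and deubiquitinase sites, against 83.5% of all sites. Between 0.3 and 0.4 they were 50.0%, 25.6% and 26.8%, against 33.2% of all sites, the E2 share resting on 20 sites. Under 0.2, only 1 of 124 sites of these genes was in both siVirma lists, the site in Usp34 that kept 95.3% of its level, against 2.83% of all sites, which kept a median of 92.2%. A site under 0.2 can be listed in siVirma only if its level stayed at 0.1 or more, so retention here is set by the level minimum. The share of the siNC level that remained at sites called in all 4 lists was lowest in E2 genes at high levels: at 0.8 or more its median was 42.6% over 14 E2 sites, 56.3% over F-box sites and 54.7% over deubiquitinase sites, against 56.8% of all sites.

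**Figure D1:**
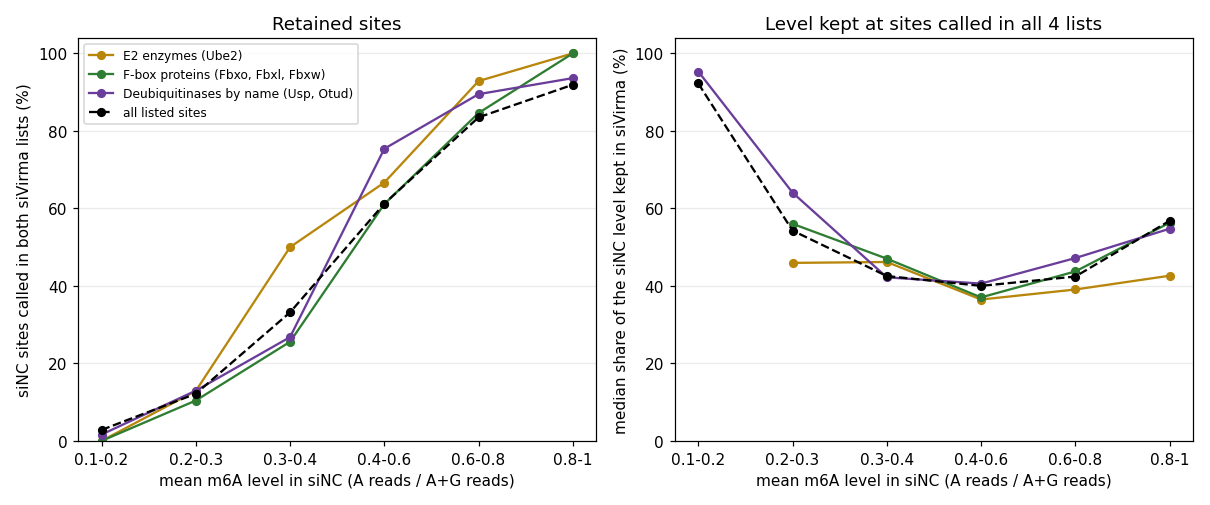
Retention of m6A sites by their mean siNC level, for E2, F-box and deubiquitinase genes and for all listed sites: the left panel gives the percent of sites in both siNC lists that were called in both siVirma lists, the right panel the median percent of the siNC level kept in siVirma at sites called in all 4 lists. Retention climbs with the siNC level in each group, and the E2 line ends lowest on the right, at 42.6% against 56.8% of all sites.

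Genes differed in retention at similar numbers of sites. Among those with at least 8 sites, Fbxo38, an F-box protein known for degrading PD-1 in T cells, kept 7 of 8 in both siVirma lists, and Fbxo5 (Emi1), an inhibitor of the anaphase-promoting complex, 9 of 11. Otud4, a deubiquitinase of lysine-48 chains, kept 11 of 16 and Usp47 14 of 21, while Otud5, which stabilises p53 and other regulators, kept 3 of 10 and Usp9x 4 of 10. Fbxo33 kept 2 of 13 and Fbxo21 5 of 15. In the E2 group Ube2q1 kept 12 of 19 and Ube2v1, the inactive partner of Ube2n, 5 of 9, against 3 of 9 in Ube2d3 and 5 of 11 in Ube2o. These genes also differ in level: the median siNC level of their sites was 0.728 in Fbxo38 and 0.698 in Fbxo5, against 0.337 in Fbxo33 and 0.335 in Fbxo21. No site in either siVirma list was found for 9 genes: Ube2a, Ube2h, Ube2j1, Ube2nl, Fbxl15, Fbxo3, Fbxo6, Fbxw8 and Usp17lb. Each of these had at most 2 sites in both siNC lists. Every site of both siNC lists was called in both siVirma lists in 6 genes, Ube2e3, Ube2f, Ube2q2, Ube2w, Fbxo46 and Fbxw17, with 1 site each except Ube2f with 3.

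The level per gene was tested on the reads summed over sites that are called in all 4 lists and covered by 20 or more reads per list, which 76 genes had: 19 E2, 25 F-box and 32 deubiquitinase genes. These 76 are the genes whose sites stayed above the minimum in siVirma, so they are not a sample of all 108. Of them, 75 were lower in siVirma and 0 higher by edgeR's quasi-likelihood test at an adjusted p of 0.05 (Benjamini-Hochberg over all 5642 genes tested), and in 75 the siVirma and siNC libraries did not overlap. Over all genes tested, 93.8% were called lower, 0.177% higher and 95.4% did not overlap, so the count in these genes is near the background. By DESeq2 and by limma on logit levels 75 genes were also lower and 0 and 0 higher. The median share of the siNC level that a gene kept was 40.2% in E2, 49.1% in F-box and 45.7% in deubiquitinase genes, against 44.9% of all genes. The median gene level was 0.244 and 0.256 in siVirma and 0.706 and 0.667 in siNC for E2 genes, 0.368 and 0.368 in siVirma and 0.709 and 0.715 in siNC for F-box genes, and 0.241 and 0.264 in siVirma and 0.604 and 0.575 in siNC for deubiquitinase genes. The share of unconverted A was also lower in siVirma in these genes, with medians of 1.16% and 1.22% in siVirma, against 1.94% and 1.85% in siNC, and its part in the level changes was not tested.

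**Figure D2:**
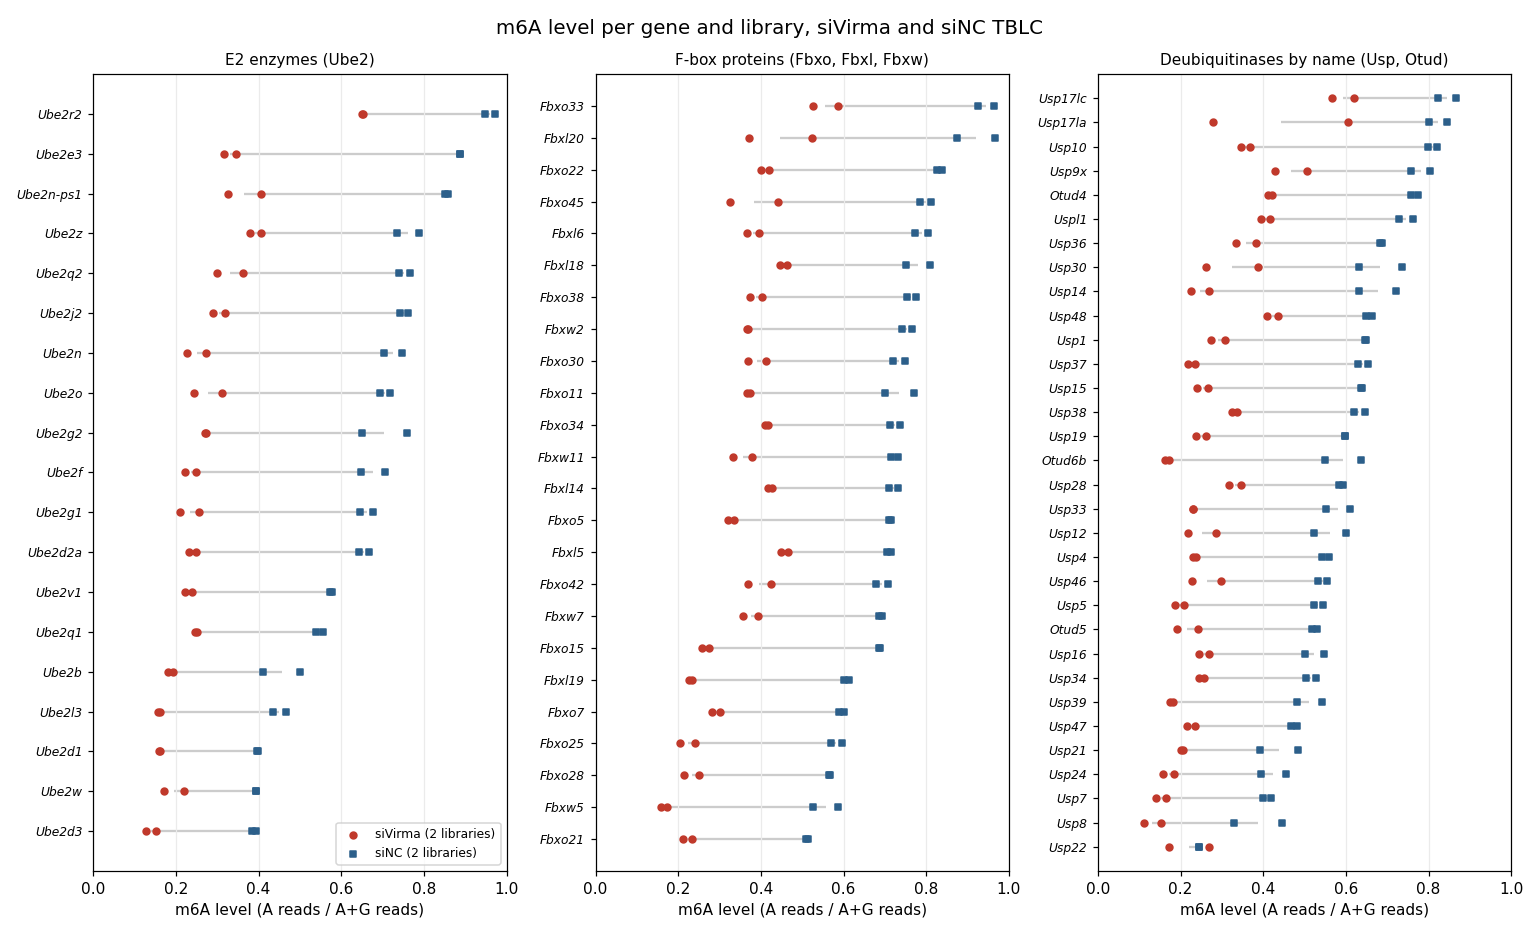
m6A level (A reads over A+G reads, summed over tested sites) of the tested genes named here in the 2 siVirma libraries (circles) and 2 siNC libraries (squares), in 3 panels for E2, F-box and deubiquitinase genes, with a line joining the group means. Both siVirma points lie left of both siNC points in each gene shown except Usp22, at the bottom of the right panel.

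Well known members of the pathway fell by different amounts. Fbxw7, the F-box receptor of Myc, cyclin E and Notch, had levels of 0.358 and 0.392 in siVirma, against 0.692 and 0.686 in siNC, over 4 sites, and kept 54.4%. Usp7, which stabilises Mdm2 and p53, had 0.140 and 0.164 in siVirma, against 0.419 and 0.401 in siNC, over 2 sites, and kept 37.1%. In both genes the groups stood far apart relative to their replicates, and edgeR's adjusted p was 1.3e-12 for Fbxw7 and 8.5e-15 for Usp7. Fbxo15, a marker of undifferentiated embryonic stem cells, had 0.275 and 0.259 in siVirma, against 0.686 and 0.688 in siNC, at 1 site. Usp9x, a large X-linked deubiquitinase, had 0.507 and 0.429 in siVirma, against 0.804 and 0.758 in siNC, over 4 sites. Its log2 odds change (A against G reads) was -2.01 ± 0.16 (SE), and -1.13 without the second siVirma library, which changes the sites tested. The Usp17l genes rested on 1 site each: Usp17la had 0.278 and 0.606 in siVirma, against 0.8 and 0.844 in siNC, and Usp17lc had 0.621 and 0.565 in siVirma, against 0.867 and 0.824 in siNC. Without the first siVirma library the log2 odds change of Usp17la was -1.53, against -2.53 with all 4, and without the second that of Usp17lc was -0.99, against -1.85. Here too the sites tested can change. Usp17lb and Usp17le had no tested site.

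The exception was Usp22, the deubiquitinase of histone H2B in the SAGA coactivator complex. Its 1 tested site, at chr11:61065855 on the minus strand (mm39), had levels of 0.173 and 0.268 in siVirma, against 0.244 and 0.244 in siNC. The siVirma libraries lie on both sides of the siNC libraries, on 41 to 52 reads each, and the change was not called (edgeR, adjusted p = 0.654). The siNC level of the site is close to 0.223, under which the level minimum keeps only sites that lost less than the median gene. Its 6 other sites in both siNC lists lie at the opposite end of the span of listed sites, between positions 61043382 and 61045197, and none of them was in both siVirma lists. Without the first siVirma library, Usp22 was called lower, at a log2 odds change of -0.88. Leaving out this library changes the sites tested, so that value does not describe the site at chr11:61065855 alone.

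Because nearly all genes fell, each was also set against the change of the median gene, a log2 odds change of -2.17. A negative difference then means a larger fall in odds than that of the median gene, and a positive one a smaller fall. By edgeR 8 genes were called below the median gene and 10 above it, against 12.9% and 15.6% of all genes tested. The 8 are 5 of 19 E2 genes, 1 of 25 F-box genes and 2 of 32 deubiquitinase genes, and the 10 are 1 E2, 3 F-box and 6 deubiquitinase genes. The median difference from the median gene was -0.48 in E2, -0.07 in F-box and 0.16 in deubiquitinase genes. This split between the groups was not tested. The calls depend on the test: DESeq2 called 5 below and 7 above, and limma on logit levels called only Ube2e3 below and Usp22 above.

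Among the E2 genes with larger falls, Ube2e3, an E2 with an extended N-terminus, stood lowest. At its 1 site, chr2:78750482 on the plus strand, the level was 0.345 and 0.316 in siVirma, against 0.888 and 0.886 in siNC, a difference of -1.80 ± 0.27 (SE) from the median gene (edgeR, adjusted p = 3.8e-06). Ube2n, which builds lysine-63 chains together with Ube2v1, had 0.227 and 0.274 in siVirma, against 0.746 and 0.702 in siNC, over 2 sites, a difference of -0.82 ± 0.18. Its partner Ube2v1 had 0.239 and 0.223 in siVirma, against 0.572 and 0.577 in siNC, a difference of 0.01 ± 0.13 that was not called. Ube2j2, an enzyme of the endoplasmic reticulum membrane, differed by -0.63 ± 0.18, and Ube2d2a, of the family that serves many RING ligases, by -0.41 ± 0.11. Without the second siNC library Ube2j2 was at -0.56 and no longer called, and with the sites held fixed Ube2d2a was at -0.36 and not called without the first siVirma library. Ube2r2, a partner of SCF ligases, had 0.650 and 0.652 in siVirma, against 0.949 and 0.972 in siNC, at 1 site. It was called below the median gene in odds, at -1.46 ± 0.47, although it kept 67.8% of its level, more than the 44.9% of the median gene, since odds weigh changes near a level of 1 more. Its difference lay between -1.97 and -1.10 without 1 of the 4 libraries, and in each case the call was lost. Ube2q1 was the only E2 gene called above, at 0.29 ± 0.11, with 0.247 and 0.250 in siVirma, against 0.540 and 0.557 in siNC, over 12 sites. Its value was between 0.23 and 0.36 without 1 library, and again the call was lost each time.

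Fbxl5 and Fbxl14, F-box genes of the leucine-rich repeat type, lost less than the median gene. Fbxl5, the iron-sensing receptor that degrades Irp2, had levels of 0.465 and 0.449 in siVirma, against 0.705 and 0.715 in siNC, over 10 sites, kept 64.4% and differed by 0.64 ± 0.11 (edgeR, adjusted p = 1e-05). Fbxl14 had 0.417 and 0.427 in siVirma, against 0.732 and 0.710 in siNC, over 10 sites, and differed by 0.34 ± 0.10. In both genes the libraries of a group lay within 0.04 of each other and the groups did not overlap. The Fbxl5 call was kept without any 1 library. Fbxl14 was at 0.19 and 0.28 without the first and second siVirma library and 0.26 without the second siNC library, none of which was called. Fbxo22, which degrades the histone demethylase Kdm4a in human cells, was the only F-box gene called below the median gene in odds. It had 0.419 and 0.401 in siVirma, against 0.839 and 0.827 in siNC, over 4 sites, a difference of -0.67 ± 0.13. Yet it kept 49.2% of its level, more than the 44.9% of the median gene, since odds weigh changes near a level of 1 more. Its difference was -0.03 without the first siVirma library and -0.29 without the second, neither of them called. With the sites held fixed, a setting chosen after seeing the data, it was -0.74 and -0.61 and called in both. The largest negative differences in the group, -1.60 in Fbxl20 and -1.42 in Fbxo33, rested on 1 site each and were not called. For Fbxo33 the log2 odds change was -3.60 with all libraries, -1.38 without the second siVirma library and -2.38 without the second siNC library. The sites tested can change between these fits. Fbxo42, the richest F-box gene, had 0.368 and 0.425 in siVirma, against 0.679 and 0.707 in siNC. Its log2 odds change was -1.81, and -0.81 without the first siVirma library, which changes the sites tested.

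Of 32 deubiquitinase genes, 6 lost less than the median gene, a share near the 15.6% of all genes. Usp48 had levels of 0.408 and 0.436 in siVirma, against 0.648 and 0.663 in siNC, over 12 sites, kept 64.4% and differed from the median gene by 0.78 ± 0.09 (edgeR, adjusted p = 2.7e-09). All of its 12 sites were lower in siVirma, and they kept 43.8% to 72.3% of their siNC level. Usp34 had 0.244 and 0.258 in siVirma, against 0.527 and 0.502 in siNC, over 14 sites, and differed by 0.50 ± 0.10. Usp47 had 0.214 and 0.234 in siVirma, against 0.466 and 0.481 in siNC, over 12 sites, and differed by 0.53 ± 0.12. The tested sites reach down to a siNC level of 0.185 in Usp34 and 0.206 in Usp47. Under 0.223 the level minimum keeps only sites that lost less than the median gene, and its part in these 2 calls was not tested. The Usp48 and Usp34 calls were kept without any 1 library, while Usp47 was at 0.34 and not called without the second siVirma library. Usp28, which opposes the turnover of Myc by Fbxw7, differed by 0.65 ± 0.22 and Usp38 by 0.37 ± 0.12. Without 1 library Usp28 was between 0.38 and 0.66 and Usp38 between 0.20 and 0.38, with each of these calls lost. Usp22 stood 1.92 ± 0.48 above the median gene. It was at 1.11, still called, without the first siVirma library and at 1.38, not called, without the second. Leaving out a library can change the sites tested.

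Usp10 and Otud6b were the deubiquitinases called below the median gene. Usp10, which acts on p53 and binds the stress granule protein G3bp1, had 0.368 and 0.346 in siVirma, against 0.799 and 0.820 in siNC, over 7 sites, a difference of -0.75 ± 0.12. Without the second siNC library, which listed 17 of its sites where the first listed 26, the difference was -0.20 and not called, and with the sites held fixed it was -0.67 and called. Otud6b, an OTU-type deubiquitinase tied to proteasome assembly, had 0.172 and 0.163 in siVirma, against 0.637 and 0.549 in siNC, over 2 sites, a difference of -0.68 ± 0.22. It was at -0.80 without the second siVirma library and -0.43 without the first siNC library, neither called. With the sites held fixed it was at -0.75 and -0.64 without the first and second siVirma library. In that setting it was at -0.42 without the first siNC library, and none of the values was called. DESeq2 put Otud6b at -0.68 and the change of the median site as offset put it at -0.57, also not called. The other OTU genes did not differ from the median gene by a call: Otud4 stood at -0.03 ± 0.12 and Otud5 at 0.17 ± 0.37.

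Single sites within a gene changed by different amounts. Of 328 tested sites, 313 were lower in siVirma and 0 higher by edgeR, against 91.6% and 0.147% of all sites, and 28 were below and 14 above the change of the median site, against 9.80% and 7.88% of all sites. Below the median site were 8 of 53 E2, 14 of 136 F-box and 6 of 139 deubiquitinase sites, and above it 1, 4 and 9. Among sites with at least 50 reads in each library, the site of Usp10 at chr8:120684164 on the plus strand had levels of 0.297 and 0.3 in siVirma, against 0.887 and 0.895 in siNC. Another site of the gene, at chr8:120668569, kept 62.2% where this one kept 33.5%. Ube2f, the NEDD8 carrier that works on Cul5, had a site at chr1:91213372 with 0.290 and 0.229 in siVirma, against 0.850 and 0.746 in siNC. Among the 4 smallest changes at such sites was that in Uspl1 at chr5:149151638 on the plus strand, with 0.188 and 0.173 in siVirma, against 0.222 and 0.235 in siNC, which was not called (edgeR, adjusted p = 0.313). In Usp47, the site at chr7:111692415 had 0.105 and 0.159 in siVirma, against 0.209 and 0.203 in siNC (edgeR, adjusted p = 0.0973). Both sites lie near or under a siNC level of 0.223, where a site that lost as much as the median gene would leave the siVirma lists, so small falls there are what the level minimum selects. A highly methylated site of Otud4 at chr8:80399690 on the plus strand kept 91.1% of its level, with 0.854 and 0.827 in siVirma, against 0.929 and 0.917 in siNC, while another site of Otud4 kept 28.8%.

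**Figure D3:**
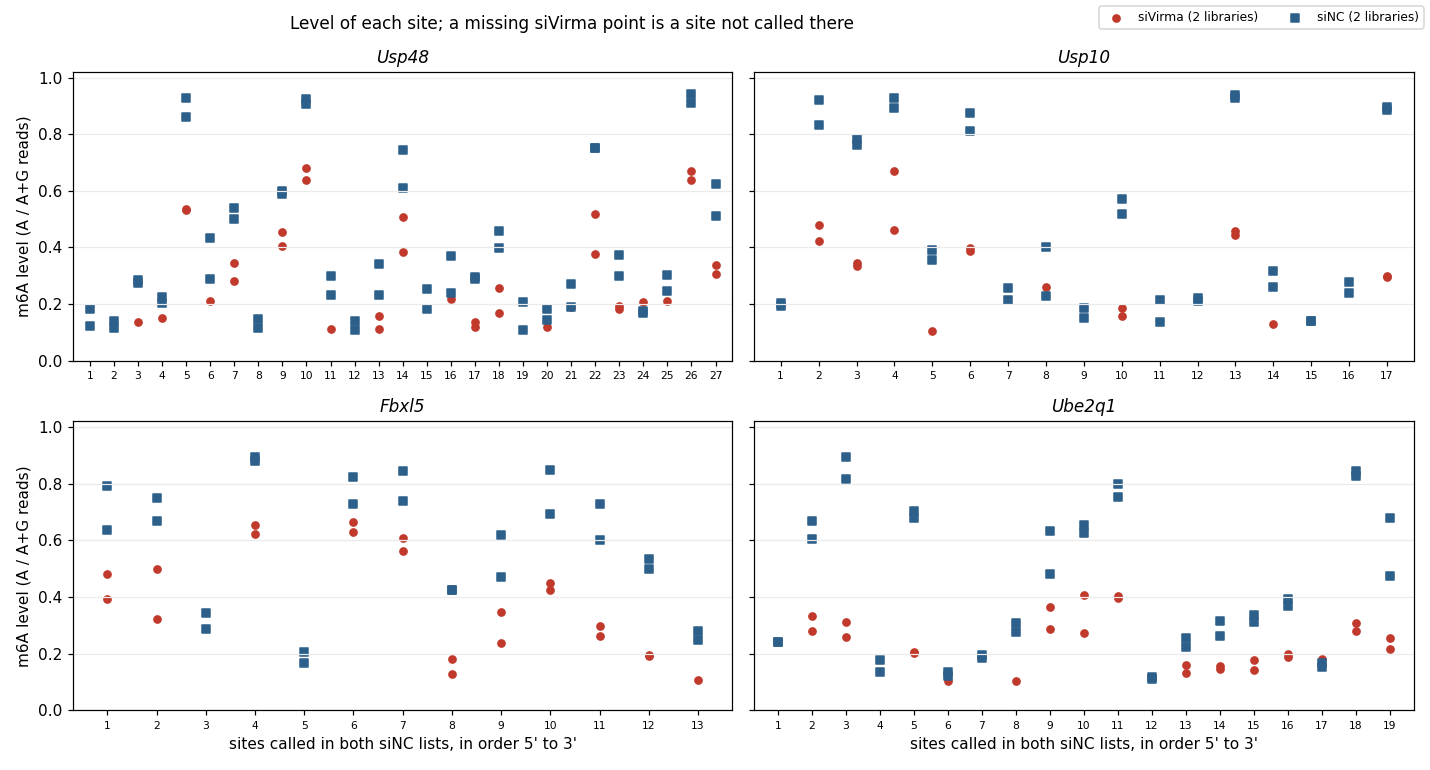
m6A level of every site called in both siNC lists along Usp48, Usp10, Fbxl5 and Ube2q1, in transcript order, in the 2 siVirma libraries (circles) and 2 siNC libraries (squares). A site without a siVirma point was not called in that library, and such sites are mostly those under a siNC level of 0.3.

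Gene coverage, the authors' measure of reads over a gene, was higher in siVirma for most genes before centring, by 0.17 (log2) in the median, so changes are given relative to the median gene. Of 87 genes with a site in every list, 7 had higher and 11 lower coverage in siVirma by limma (adjusted p of 0.05), against 12.0% and 14.8% of all genes. Without centring, none was called lower and 1, Fbxw17, was called higher, where of all 6787 genes 25 were lower and 283 higher. None of the 18 calls below was therefore made on the deposited scale. There the 7 higher genes stood at 0.35 to 0.48 (log2), 8 of the 11 lower genes stayed below 0, at -0.17 to -0.03, and Fbxw2, Usp33 and Usp4 turned to 0.0015, 0.014 and 0.0031. By group, 3 E2, 3 F-box and 1 deubiquitinase gene were higher, and 3, 2 and 6 were lower. The fibroblast genes were higher in siVirma by a median of 0.34, and their part in these changes was not tested. Coverage is deposited for listed genes only, so it covers no gene without a called site.

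The genes with higher coverage include both partners of the lysine-63 E2. Ube2n had 97.8 and 87.6 in siVirma, against 71.4 and 67.9 in siNC, and rose by 0.25 ± 0.05 (log2, SE), and Ube2v1 had 74.6 and 66.3 in siVirma, against 54.0 and 52.8 in siNC, and rose by 0.23 ± 0.05. Fbxl6 rose by 0.31 ± 0.05, with 79.6 and 64.4 in siVirma, against 51.8 and 51.0 in siNC, and Usp10 by 0.29 ± 0.05, with 123 and 101 in siVirma, against 84.2 and 79.0 in siNC. These 4 were called higher without any 1 library. Fbxl19 rose by 0.26, Ube2f by 0.19 and Fbxo5 by 0.18. Fbxl19 was at 0.19 without the first siVirma library, Ube2f at 0.14 and Fbxo5 at 0.12 without the first siNC library, and none of these 3 passed then. Without either siVirma library, Ube2f stood at 0.19 and 0.20 and Fbxo5 at 0.14 and 0.23, also not called. Ube2n and Usp10 both fell more in m6A odds than the median gene and are higher in coverage, while Ube2v1 is higher in coverage at the median m6A change. For Usp10 the difference in odds was -0.20 and not called without the second siNC library, which changes the sites tested.

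Among genes with lower coverage, Usp48 fell most, by 0.34 ± 0.05 (log2, SE) after centring, with 77.6 and 65.5 in siVirma, against 82.0 and 78.3 in siNC (limma, adjusted p = 0.000904). Usp9x fell by 0.31 ± 0.05, with 80.4 and 69.2 in siVirma, against 82.1 and 82.5 in siNC. Both siVirma libraries lie below both siNC libraries in these genes even before centring, and both calls were kept without any 1 library. The 2-cell genes Usp17lc and Usp17la fell by 0.29 and 0.28 at a coverage of 21.2 to 30.2, near the low end of listed genes. Ube2m, the NEDD8 carrier of most cullins, fell by 0.23 and the β-TrCP gene Fbxw11 by 0.22, with smaller falls in Ube2w, Ube2n-ps1, Fbxw2, Usp4 and Usp33, of 0.15 to 0.22. Without the first siVirma library only Usp48, Usp9x and Ube2m remained called. In that setting Usp17lc was at -0.30, Usp17la at -0.20, Fbxw11 at -0.22, Ube2w at -0.17, Ube2n-ps1 at -0.14, Fbxw2 at -0.21, Usp4 at -0.20 and Usp33 at -0.16. Without the second siVirma library, Ube2m was at -0.16, Fbxw11 at -0.21, Fbxw2 at -0.11, Usp4 at -0.12 and Usp33 at -0.14, none called. Without the first siNC library the values not called were -0.27 in Usp17la, -0.19 in Ube2m, -0.16 in Ube2n-ps1, -0.19 in Fbxw2, -0.11 in Usp4 and -0.14 in Usp33. Without the second they were -0.31 in Usp17la, -0.17 in Fbxw11, -0.15 in Fbxw2 and -0.17 in Usp33. Fbxw7, Usp7, Usp22, Fbxo15 and Ube2e3 were not called in coverage, at 0.01, -0.13, -0.10, -0.15 and 0.06.

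**Figure D4:**
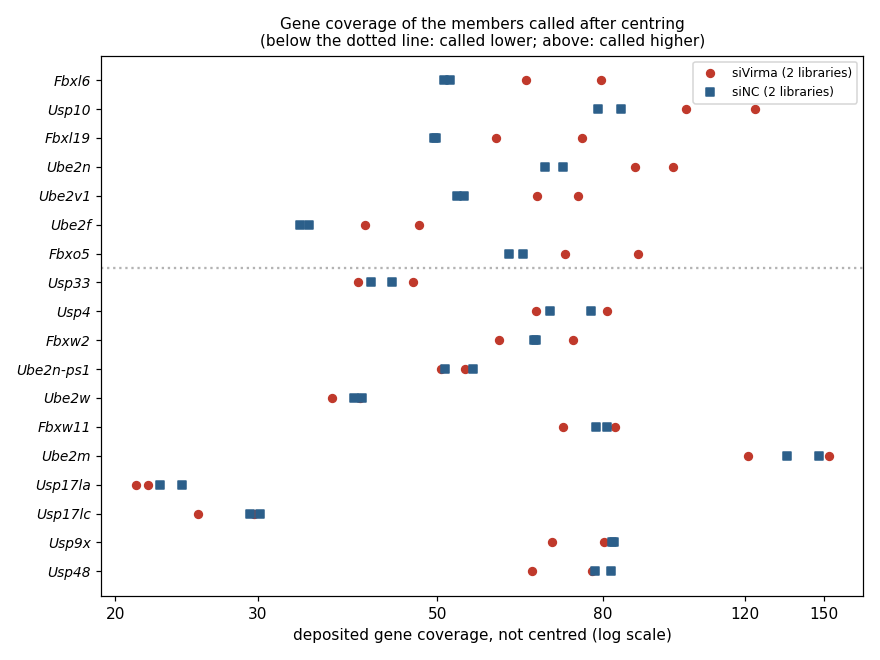
Deposited gene coverage (log axis, not centred) of the 18 genes called after centring on the median gene, in the 2 siVirma libraries (circles) and 2 siNC libraries (squares). Genes above the dotted line were called higher, with both siVirma points to the right of siNC, and genes below it were called lower, where in most genes the libraries overlap on this scale and the call rests on centring.

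Other genes of the pathway were also mostly lower in m6A level in siVirma, where 93.8% of all genes tested were. All 20 tested genes of the cullin-RING core and neddylation, all 7 F-box genes with other names such as Skp2, all 9 deubiquitinases with other names such as Bap1, and all 23 HECT and RBR ligases were lower in m6A level in siVirma (edgeR). Of 5 E1 genes, 4 were lower, and Uba6, with 1 site, kept 63.9% and was not called. Of 17 proteasome genes, 12 were lower. Set against the median gene in odds, where 12.9% of all genes were called below and 15.6% above, 1 of 20 cullin-RING genes, Cul3, was below and 5 were above. Cul3 kept 60.8% of its level, more than the median gene, so it was below in odds only. Of 23 HECT and RBR ligases, 4 were below and 1, Huwe1, above, and of 17 proteasome genes 2 were below and 6 above. None of the E1 genes or F-box genes with other names was called on either side, and 1 of 9 deubiquitinases with other names, Vcpip1, was above. In coverage after centring, where 14.8% of all genes were called lower and 12.0% higher, 6 of 23 cullin-RING genes were lower and 0 higher, 4 of 5 E1 genes were lower and 0 higher, and 8 of 17 proteasome genes were lower and 1 higher. Among HECT and RBR ligases 3 of 25 were lower and 1 higher, and among F-box genes with other names 1 of 7 was lower and 1 higher. Among deubiquitinases with other names 0 of 13 were lower and 2 higher, Psmd7 and Pan2. Psmd7 is in the proteasome list too, where it is the 1 gene called higher, so it is counted in both lists. The E2 Ube2f was higher and its partner Rnf7, the RING protein of Cul5 ligases, lower, at 0.19 and -0.22.

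In EPSC, recruitment of the demethylase to Gata6 was compared at 299 sites that match the position and strand of a site in these genes, in 69 genes. A depth of 20 or more reads in both groups was reached by 128 of them. Fisher's exact test was run on the pooled reads, so it sets 1 pool against another and has no replicate spread. By this test 0 were lower and 0 higher in sgGata6 at an adjusted p of 0.05, against 0.255% and 0.0196% of all sites. Of all 10185 sites tested, 930 were lower and 267 higher at an unadjusted p under 0.05, 11.8% together. Of the 128 sites of these genes 4 were lower and 7 higher, 8.59% together, and the split by direction was not tested. Their median level was 0.321 in sgGata6 and 0.298 in sgCtrl, with a median of 31 sites in E2 genes of 0.295 and 0.259, of 36 sites in F-box genes of 0.305 and 0.311, and of 61 sites in deubiquitinase genes of 0.350 and 0.292. Site by site, the median difference (sgGata6 minus sgCtrl) was 0 over the 128 sites, against -0.0091 over all sites. By group it was -0.0048 in E2, -0.020 in F-box and 0.026 in deubiquitinase genes, so the separate medians overstate the difference. The median coverage of a site was 41 reads in sgGata6 and 30.5 in sgCtrl, so only large differences were detectable. The lowest p was at a site of Fbxo31, a receptor for cyclin D1 in human cells, at chr8:122278817 on the minus strand, with 1 of 52 reads in sgGata6 and 12 of 53 in sgCtrl (Fisher's exact test, adjusted p = 0.129). The Ube2e3 site had 0.769 in sgGata6 and 1 (21 of 21 reads) in sgCtrl, and a site of Usp48 at chr4:137384037 had 0.929 in sgGata6 and 0.667 in sgCtrl, at adjusted p = 0.321 and 0.224 by Fisher's exact test. Sites of Fbxl5 (0.480 in sgGata6 and 0.737 in sgCtrl), Fbxo15 (0.280 in sgGata6 and 0 of 20 reads in sgCtrl) and Usp10 (0.262 in sgGata6 and 0.053 in sgCtrl) were the others with the lowest p, and none was called.

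Levels at the same sites were also set side by side for the control cells of both kinds. At the 118 sites shared by both siNC lists and EPSC with at least 20 reads, the median level was 0.302 in sgCtrl and 0.355 in siNC, and 77.1% were lower in sgCtrl, against 69.3% of all shared sites. These sites had to be called in both siNC lists, at a level of 0.1 or more, while sgCtrl had only a minimum of reads. Its levels can therefore lie under 0.1, such as 0.053 at a site of Usp10, which favours lower values in sgCtrl. The tables come from different cells and were made separately, so the difference was not tested. The Usp10 site at chr8:120684164 had 0.846 in sgGata6 and 0.857 in sgCtrl in EPSC, and a mean of 0.298 in siVirma and 0.891 in siNC in TBLC.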

How the data were processed

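Per the labels' protocols, mRNA was treated by GLORI and sequenced. The genome build mm39 comes from the submitters' processing notes, while no aligner or site caller is named in the sources used here. For every TBLC library the authors deposited a list of called sites with read counts of A+G and of unconverted A. Per the file headers, each site also has a level, a fraction of A over A+G, which matched that quotient within 5e-06. The deposited conversion rate is also a fraction, and gene coverage a signal; the way the authors computed them is not stated. Each site's p-value and adjusted p-value are the authors' and served only to describe the lists. The deposited EPSC table gives A read counts, A+G coverage and levels pooled per group; 2 of its columns, of total coverage, were not used.

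Groups came from sample titles. The genes and pathway lists were chosen with earlier results of these data known, so counts over them are descriptions. All 108 symbols were found in the RefSeq gene table of GRCm38.p6, used for names only; no mm39 annotation was used here, so exons and UTRs are not stated and no sequence is printed.

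Methylated and unmethylated counts were tested in edgeR 4.0.16 (R 4.3.3) by the quasi-likelihood test with one coefficient per library plus a siVirma effect on methylated reads, over sites in all 4 lists with at least 20 A+G reads each, per site or summed per gene. The same fit with the median change as an offset gave the comparison with the median gene or site. Coverage was tested in limma 3.58.1 with a mean trend, on log2 values centred per library on the median gene. P-values were adjusted over all features tested (Benjamini-Hochberg). EPSC sites were tested by Fisher's exact test in scipy 1.17.1. DESeq2 1.42.0, limma on logit levels (0.5 added to A and G reads), other read minimums, another offset, uncentred coverage, a replicate block and leaving out each library were the alternatives. Tests were first tried on simulated data. Summaries used Python 3.11.15, numpy 2.4.6 and pandas 2.3.3, and plots matplotlib 3.10.9. Intervals were not computed for pooled levels, and PCR reads that carry no molecular identifier may stem from the same molecule.

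Genes were named by a rule: per group, the 3 with most sites, up to 4 called on each side of the median gene, and the 2 with the highest and 2 with the lowest retention among genes with at least 8 sites; up to 4 with higher and 4 with lower coverage; the 4 largest and 4 smallest site falls at 50 or more reads; the 3 lowest p in each direction in EPSC; and Fbxw7, Fbxo15, Usp7, Usp9x, Usp22, Otud6b, Ube2e3 and the Usp17l genes. Values of some genes that enter the counts are not reported here. Other genes were named after their values were seen.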

Additional observations from a re-analysis of the deposited data

How the results depend on the processing

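With 2 libraries a group and few reads per site, small differences between genes were not detectable, and sites lost from the siVirma lists have no value. Against the median gene, 8 genes below and 10 above of 76 became 13 and 6 of 55 with at least 50 reads. They became 5 and 7 with DESeq2, and 1 and 1 with limma on logit levels, and the causes were not tested. Over all genes, 730 below and 881 above of 5642 became 611 and 598 of 3275 with at least 50 reads. With DESeq2 they became 381 and 653, and with limma 220 and 344, so the counts moved over all genes too. Leaving out each library gave 7 to 8 below and 4 to 7 above; with the sites held fixed, an alternative chosen after seeing the data, 5 to 8 and 4 to 8. Sites lower in siVirma numbered 161 with at least 50 reads, where fewer sites are tested, against 313. Coverage without centring gave 0 lower and 1 higher genes, against 11 and 7, and put Fbxw2, Usp33 and Usp4 at 0.0015, 0.014 and 0.0031 (log2); leaving out each library gave 3 to 7 lower and 4 to 7 higher. Over all 6787 genes, coverage without centring gave 25 lower and 283 higher, against 1005 and 815 with it. Retention in both siVirma lists was 88.6% for all 108 genes at a siNC level of at least 0.5, and 86.8%, 88.0% and 89.9% for E2, F-box and deubiquitinase genes. With at least 50 reads it was 48.0% for E2 and 54.6% for F-box genes. Without 1 library it was 40.9% to 60.8% for all 108, 38.4% to 54.8% for E2, 43.4% to 62.3% for F-box and 39.5% to 62.6% for deubiquitinase genes. Libraries share only a number (correlation of same-numbered deviations 0.0084 for sites and 0.14 for coverage, 2 pairs): with a replicate block, 75 genes were lower, 8 below and 10 above the median gene, 313 sites lower, and 14 genes lower and 10 higher in coverage. Over all genes, the block gave 725 below and 876 above the median gene, and 1365 lower and 941 higher in coverage. No EPSC site of the 108 genes was called at a minimum of 10, 20 or 50 reads. Of the single gene values under the alternatives, 682 kept direction and call, 135 lost the call, 1 gained it and 3 turned.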

Other observations

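Some sites of these genes were called in both siVirma lists and in neither siNC list. There were 17, of 1667 over all genes: 1 in an E2 gene, 12 in F-box genes and 4 in deubiquitinase genes. Fbxl14 held 4 of them and Fbxl4, whose protein acts in mitochondrial turnover, 3. At chr6:119457729 in Fbxl14 the level was 0.767 and 0.743 on 116 and 105 reads in siVirma. In Usp10 a site at chr8:120668385 had 0.530 and 0.595 on 100 and 74 reads. Others were shallow, such as the Fbxl18 site at chr5:142871608, with 0.947 and 0.818 on 19 and 22 reads. The lists give no value for these sites in siNC, where they may have missed a minimum of reads or of level, so no change can be given. The Fbxl18 lists held 17 and 6 sites in siVirma, against 15 and 7 in siNC. Usp42 and Fbxo46 had 4 and 6 sites in the first siVirma list, 0 and 3 in the second, and 1 to 3 in each siNC list.

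For 5 proteasome genes the level was not called lower in siVirma. Their siNC levels were low, and those of Psma5 and Psmb7 lay under 0.223, where only sites that lost less than the median gene stay in the siVirma lists, so their high retention is partly set by the level minimum. Psma6, a subunit of the 20S core, averaged 0.248 ± 0.024 in siVirma and 0.243 ± 0.043 in siNC (SD, n = 2 each), and Psmb7, another core subunit, 0.200 ± 0.0026 in siVirma and 0.200 ± 0.059 in siNC. Psmb2 averaged 0.379 ± 0.0023 in siVirma and 0.389 ± 0.045 in siNC, and Psmc6, an ATPase of the 19S cap, 0.253 ± 0.00061 in siVirma and 0.260 ± 0.014 in siNC. Psma5 kept 83.3%. Each of the 5 rested on 1 or 2 tested sites, and all were called above the median gene by edgeR, at differences of 1.87 to 2.21 (log2 odds). The list also holds genes with large falls, such as Psme3, which kept 26.7%, and Psmb1, which kept 30.7%.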
